A study of Mus musculus with 4 samples.

Results

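The integrated stress response and the mitochondrial unfolded protein response were examined as chromatin accessibility at 37 genes, chosen by their known function out of 21883 protein-coding genes. Peaks were taken as belonging to a gene when their midpoint lay inside its mm10 span or within 50000 bp of it. Peaks no more than 1000 bp from the start or far end of such a gene were called gene-end peaks, and all others distal. Start and far end are here the outer bounds of the RefSeq span. Peaks over a start site inside that span, as at Slc3a2 and Mthfd2, therefore count as distal. The data were ATAC-seq peak lists (Tn5 transposase inserts adapters where DNA is open) of dermal fibroblasts from C57BL/6 mice, with 1 library per group. The 4 groups were Sod2+/+ cells serving as control, cells of genotype Sod2-/- from a conditional knockout of mitochondrial manganese superoxide dismutase, Sod2+/+ cells with vehicle, and Sod2+/+ cells with rotenone, which blocks complex I of the respiratory chain, at a labelled dose of 250 µM. All 4 carry the label of 100 days, without saying what the days count, and the labels name neither the driver of the deletion nor the deleted part. The design asks how open chromatin differs when mitochondrial superoxide removal or electron transport is disturbed. The lists held 1121 peaks at the 37 loci of 433013 for control, 1464 of 585165 for the knockout, 950 of 340240 for vehicle and 922 of 347438 for rotenone. Below, 4 values in a row always follow this order (control, knockout, vehicle, rotenone).

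In the integrated stress response, 4 kinases sense different stresses and phosphorylate the translation factor eIF2α. This lowers protein synthesis in general and favours translation of the transcription factor ATF4, which with its relatives ATF5 and CHOP (Ddit3) and with C/EBP partners induces amino acid synthesis, transport and feedback genes. Mitochondrial stress reaches the same pathway, mainly through the kinase HRI (Eif2ak1), and the mitochondrial unfolded protein response adds chaperones and proteases of the matrix. The endoplasmic reticulum (ER) has its own sensors, PERK (Eif2ak3), IRE1 (Ern1) and ATF6, which share part of these targets.

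Because the lists differ in length and read depth is unknown, the 30000 peaks of each library with the highest −log10 p of the authors' peak caller were called strong, and ranks below are by that value, 1 being the strongest. The fold given for a peak is the authors' enrichment over local background. Each group being 1 library, no difference has a replicate check or a test, and the intervals given reflect counting error alone. The strong peaks had a median fold of 6.78, 5.49, 7.13 and 5.99, and a median width of 376, 293, 349 and 277 bp, so the knockout and rotenone libraries were both less enriched and narrower in peaks; the part of this in the differences below was not tested. The peak at the end of Sod2 was strong in every library (ranks 5579, 4797, 5941 and 4202) and does not check the genotype. Of 10 fibroblast marker genes, 3, 2, 3 and 2 had such a gene-end peak (Col1a2 and Vim in all 4 libraries, Pdgfrb in control and vehicle alone), while 0 of 5 leukocyte and 0 of 4 skeletal muscle markers had one in any library. Of 6 keratinocyte markers 1, 2, 1 and 2 had one (Krt14 in all 4, and Krt10 in the knockout and rotenone alone), of 4 endothelial markers 1 (Tek), and of 5 melanocyte and Schwann markers 1 to 2 (Mitf in all 4). Over all protein-coding genes the share with a strong gene-end peak was 35.6%, 35.8%, 35.6% and 36.5%. The fibroblast list lay below it in every library (30%, 20%, 30% and 20%), so these counts do not identify the cell type. Whether these marker differences play a part in the results was not tested. In these bulk samples a smaller share of cells with an open site and less opening per cell cannot be told apart.

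RefSeq promoter sequences (GRCm38.p6, the assembly behind mm10; 250 bases before and 50 after the start) were matched for 33 of the 37 genes (all but Atf6, Hspa9, Ppp1r15b and Slc7a5), with 38 windows. They were searched on both strands for the C/EBP-ATF element TGATGNAA, the sequence bound by ATF4 and CHOP with C/EBP partners. Other genes of the pathway, outside the 37, had it in 4 of 29 windows (13.8%), a share similar to that of the members. Among the member windows it was found in 6, at Asns, Atf3, Chac1, Fgf21, Nupr1 and Trib3. This is 15.8% of the member windows against 3.60% of 21262 windows of protein-coding genes. These 6 windows are shown because they carry the element through which ATF4 acts, with its letters in capitals (in either orientation), each 5′ to 3′ on the strand of the gene.
Asns: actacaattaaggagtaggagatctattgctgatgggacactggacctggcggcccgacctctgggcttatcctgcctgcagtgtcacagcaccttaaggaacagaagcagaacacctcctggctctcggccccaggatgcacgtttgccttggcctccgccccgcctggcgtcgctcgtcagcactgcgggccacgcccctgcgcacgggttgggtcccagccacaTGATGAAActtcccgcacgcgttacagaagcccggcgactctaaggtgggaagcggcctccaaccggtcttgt
Atf3: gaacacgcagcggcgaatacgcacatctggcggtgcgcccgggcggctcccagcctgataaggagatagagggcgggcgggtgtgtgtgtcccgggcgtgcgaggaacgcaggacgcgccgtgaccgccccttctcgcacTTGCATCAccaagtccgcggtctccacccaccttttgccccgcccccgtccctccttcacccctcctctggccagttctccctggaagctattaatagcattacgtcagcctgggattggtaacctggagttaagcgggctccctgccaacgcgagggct
Chac1: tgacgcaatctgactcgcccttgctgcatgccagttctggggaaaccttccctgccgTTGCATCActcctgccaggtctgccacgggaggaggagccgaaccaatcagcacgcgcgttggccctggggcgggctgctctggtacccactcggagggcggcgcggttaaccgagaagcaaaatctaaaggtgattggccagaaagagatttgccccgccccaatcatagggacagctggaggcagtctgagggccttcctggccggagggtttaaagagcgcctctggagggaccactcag
Trib3: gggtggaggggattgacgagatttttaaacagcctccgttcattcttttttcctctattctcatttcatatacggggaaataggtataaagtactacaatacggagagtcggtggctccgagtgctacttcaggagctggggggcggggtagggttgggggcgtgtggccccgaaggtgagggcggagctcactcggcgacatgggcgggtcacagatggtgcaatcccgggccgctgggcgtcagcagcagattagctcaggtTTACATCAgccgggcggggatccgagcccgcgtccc
Nupr1: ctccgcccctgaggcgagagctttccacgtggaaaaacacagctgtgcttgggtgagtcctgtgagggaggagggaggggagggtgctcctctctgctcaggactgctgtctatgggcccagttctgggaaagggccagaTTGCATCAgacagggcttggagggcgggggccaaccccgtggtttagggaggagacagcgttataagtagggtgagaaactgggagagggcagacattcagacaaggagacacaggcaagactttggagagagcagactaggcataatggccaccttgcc
Fgf21: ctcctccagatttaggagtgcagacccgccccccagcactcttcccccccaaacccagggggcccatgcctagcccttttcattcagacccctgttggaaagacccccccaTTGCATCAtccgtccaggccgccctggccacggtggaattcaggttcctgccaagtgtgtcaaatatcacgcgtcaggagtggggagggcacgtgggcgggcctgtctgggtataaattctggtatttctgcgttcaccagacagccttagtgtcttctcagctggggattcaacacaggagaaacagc

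The windows are Asns on chromosome 6, 7693160-7693459, minus strand; Atf3 on chromosome 1, 191183284-191183583, minus strand; Chac1 on chromosome 2, 119350992-119351291, plus strand; Trib3 on chromosome 2, 152344011-152344310, minus strand; Nupr1 on chromosome 7, 126625421-126625720, minus strand; and Fgf21 on chromosome 7, 45615441-45615740, minus strand. The first base of the element stands 110 bases before the start in Atf3 and Nupr1, 193 in Chac1, 23 in Asns and 139 in Fgf21, and 14 bases after the start base in Trib3. At Atf3, Chac1, Trib3 and Nupr1 the element lay under a strong peak in every library, the highest ranked being that of Nupr1 (ranks 3270, 4425, 3149 and 7358). At Asns it lay under a peak just outside the strong list in every library, with ranks of 31407, 31717, 31460 and 35835. No peak of any strength covered the element or any other base of the Fgf21 window in any library. A letter match is a description of the window and does not show binding.

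The ER stress element (CCAAT, then 9 bases of any kind, then CCACG), bound by ATF6 with the factor NF-Y, was found in 1 member window, that of Hspa5, which encodes the ER chaperone BiP. It is held by 0.141% of the windows of protein-coding genes, and by 6 of 29 windows of the other genes of the pathway. The window (chromosome 2, 34771840-34772139, plus strand) is shown with that element in capitals and, before it, an AP-1 match TGANTCA, the site of JUN and FOS dimers, also in capitals.
Hspa5: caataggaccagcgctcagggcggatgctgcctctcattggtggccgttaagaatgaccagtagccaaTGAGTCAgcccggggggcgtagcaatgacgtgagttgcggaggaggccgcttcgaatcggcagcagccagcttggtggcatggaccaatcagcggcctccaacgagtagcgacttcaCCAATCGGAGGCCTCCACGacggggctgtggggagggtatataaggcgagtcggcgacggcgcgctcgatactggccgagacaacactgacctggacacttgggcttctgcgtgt

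Both Hspa5 matches lay under a gene-end peak that was among the 3 best of the 37 genes by mean rank over the 4 libraries, with folds of 14.9, 10.9, 13.5 and 11.2 and ranks of 881, 1257, 1526 and 1320. AP-1 matches stood in 3 member windows (Ddit3, Eif2ak3 and Hspa5), 7.89% against 6.99% of the protein-coding windows, so this share was near the background. The member windows were also richer in CpG, with a median of 22 CpG pairs against 13, and a strong peak overlapped 27, 28, 27 and 29 of the 38, against 33.2%, 32.9%, 33.0% and 33.4% of the protein-coding windows. Among windows with at least 22 CpG pairs the gap was smaller. A strong peak stood on 14, 15, 15 and 16 of 20 member windows (70%, 75%, 75% and 80%). Over all 7588 such windows the shares were 54.2%, 55.1%, 53.6% and 56.1%. Among windows with fewer CpG pairs the gap was wider, with a strong peak on 13, 13, 12 and 13 of 18 member windows. Over all windows of that kind the shares were 16.05%, 15.12%, 16.04% and 15.22%. The background of this split was drawn from all 32851 windows, not from the protein-coding ones alone. The part of CpG content in the members' open windows was not tested.

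Most of the genes had an open gene end in every library. Strong gene-end peaks stood at 29 of 37 genes in control cells (background 35.6% of all protein-coding genes), 30 of 37 in knockout cells (35.8%), 29 of 37 with vehicle (35.6%) and 31 of 37 with rotenone (36.5%). In all 4 libraries 27 genes had one, 73.0% against 29.7% of all genes. A further 35 genes of the ER and mitochondrial stress pathways that are not among the 37, such as Herpud1, Calr and Trap1, gave 28, 29, 26 and 29, counts of a similar share. A gene-end peak of any strength was present at 37 of 37 in each library (background 74.6%, 76.5%, 72.3% and 70.9%). Of the 38 gene-end regions that were strong in at least 1 library, 11 lay within 1000 bp of the end of another gene as well, so the peak may belong to either.

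**Figure D1:**
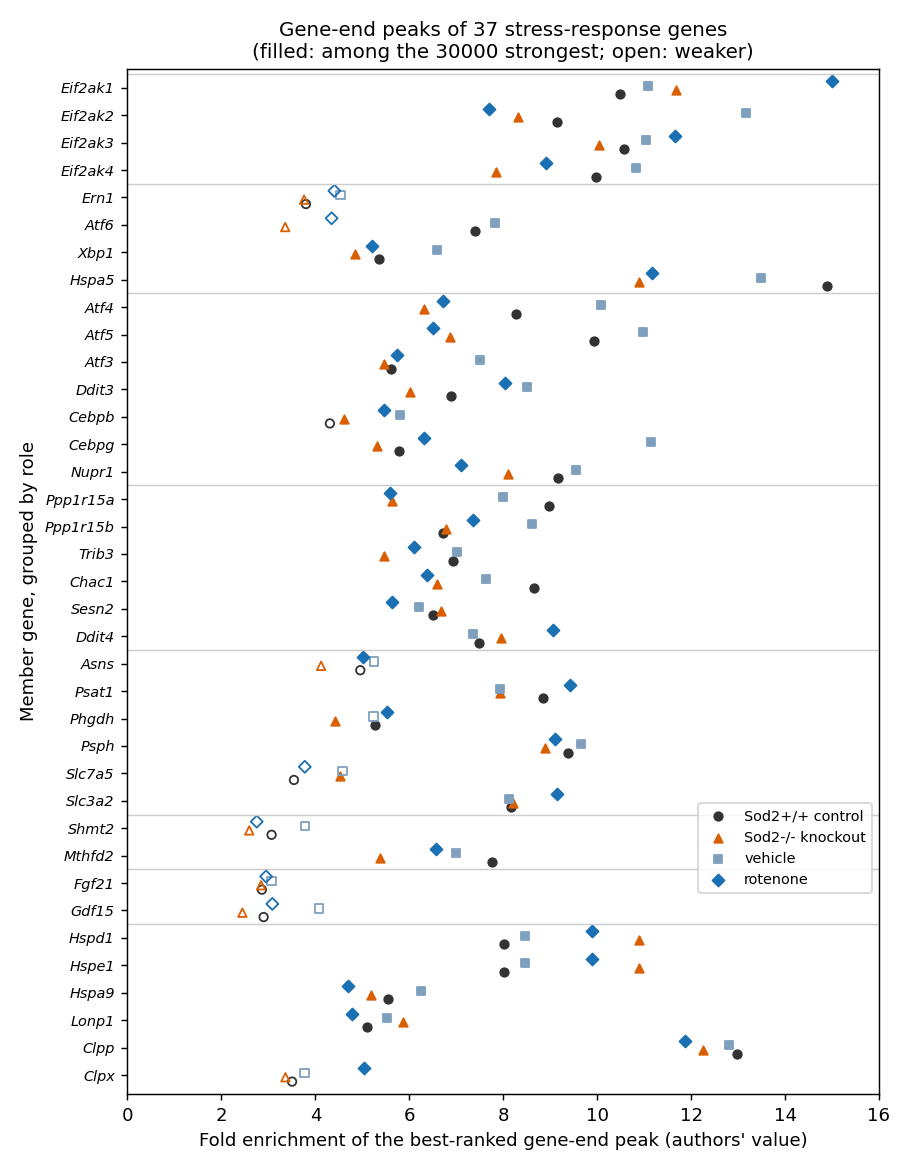
The x axis gives the authors' fold enrichment of the best-ranked peak within 1000 bp of an end of each of the 37 genes (y axis, grouped by role), with 1 point per library; filled points are among the 30000 strongest peaks of their library. Ern1, Shmt2, Fgf21 and Gdf15 have open points in all 4 libraries, Atf6 lies lower in the knockout and rotenone, and Hspd1, Hspe1 and Eif2ak1 lie higher there than in the respective control.

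Among the kinases, all 4 had a strong gene-end peak in each library. Eif2ak3, which encodes PERK (chromosome 6, 70844484-70905241), had the best ranked of them, at 70844084-70844798 over its start, with folds of 10.6, 10.0, 11.04 and 11.7 and ranks of 372, 632, 443 and 469. The peak at the start of Eif2ak1, the gene of the heme-regulated kinase HRI (chromosome 5, 143817792-143902717), had folds of 10.5, 11.7, 11.1 and 15.0. Its rank moved from 4764 to 1829 and from 4414 to 1001, so it stood higher in both disturbed libraries. The peak was also narrower there, at 264 against 558 bp and 241 against 673 bp; the part of width in the higher fold was not tested. Eif2ak2, which encodes the double-stranded RNA sensor PKR, had folds of 9.13, 8.31, 13.2 and 7.71, highest with vehicle. Eif2ak4, which encodes the amino acid sensor GCN2, had 9.97, 7.84, 10.8 and 8.91, and divided by the median fold of the strong peaks of each library it stood at 0.97 times the control in the knockout and 0.98 times the vehicle in rotenone.

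Among the other ER sensors, Atf6, the gene of a membrane-bound factor released on ER stress, differed at its gene end. The peak at 170868578-170868755 on chromosome 1 had folds of 7.40, 3.36, 7.82 and 4.35. It was strong in the control and vehicle libraries (ranks 14325 and 13670) and not in the knockout (49354) or rotenone (33788). Scaled in the same way, it was 0.56 times the control in the knockout and 0.66 times the vehicle in rotenone, and 1.005 times the control in vehicle. Its width hardly differed, at 178, 152, 165 and 150 bp. Ern1, which encodes the sensor IRE1, had no strong gene-end peak in any library (folds of 3.80, 3.76, 4.54 and 4.41). Xbp1, whose RNA IRE1 splices, had one in all 4, with folds of 5.36, 4.84, 6.58 and 5.20.

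The transcription factor genes had strong gene-end peaks throughout, except Cebpb in control (rank 42959). For Atf4, the central factor (chromosome 15, 80255184-80257545), the folds were 8.28, 6.32, 10.1 and 6.72. Atf5, a factor of the mitochondrial response, had 9.93, 6.87, 10.98 and 6.50, from a peak at 44815703-44816033 on chromosome 7 that is also near ends of Nup62 and Il4i1b. The promoter window at the outer start of Atf5, 44816609-44816908, was overlapped by weaker peaks outside the strong list, with folds of 2.76, 3.86, 3.29 and 3.87. Their ranks were 113885, 37349, 81028 and 44347, so they went the other way, higher in the knockout and rotenone. Scaled by library, Atf4 stood at 0.94 times the control in the knockout and 0.79 times the vehicle in rotenone. The strong Atf5 peak stood at 0.85 and 0.70, and all 4 values were short of 1.5 times in either direction. Ddit3, which encodes CHOP, was at 1.08 and 1.12 by the same measure. Cebpg, a C/EBP partner of ATF4, differed between the libraries without knockout or rotenone, with a fold of 5.79 for control against 11.1 for vehicle, 1.83 times when scaled. Its peak was 1100 bp wide in control and 318 bp in vehicle, and the part of width in this difference was not tested.

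The feedback and stress output genes Ppp1r15a and Ppp1r15b (subunits of the eIF2α phosphatase), Trib3, Chac1, Sesn2 and Ddit4 all had a strong gene-end peak in all 4 libraries. Ppp1r15a, which encodes GADD34, held a second one in the knockout, at 45526899-45527002 on chromosome 7 (fold 5.16, rank 19484, width 104 bp). It overlapped no peak in control or vehicle and a weak one in rotenone (rank 161949), and it lies inside Plekha4. Ddit4, which encodes the mTORC1 inhibitor REDD1, had folds of 7.475, 7.95, 7.36 and 9.07. Scaled, the knockout was at 1.31 times the control and rotenone at 1.47 times the vehicle, below the 1.5 used for a call.

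Of the amino acid genes, Psat1, Psph and Slc3a2 had strong gene-end peaks in all 4 libraries, with folds from 7.93 to 9.65. Asns, the asparagine synthetase gene that ATF4 induces, had a strong one in rotenone only (rank 23895, 7692542-7692730). It lay where control and vehicle had 1 wide weaker peak, of 970 and 943 bp. Slc7a5, which encodes the light chain of a large neutral amino acid transporter, had one in the knockout (rank 26590) and not in control (62424), vehicle (43607) or rotenone (49331). Phgdh, the entry enzyme of serine synthesis, missed the strong list in vehicle alone (rank 33270). Of the mitochondrial one-carbon enzymes, Mthfd2 had a strong gene-end peak in all libraries, at an end shared with Mob1a, and Shmt2 in none. The promoter window of Mthfd2 lies inside its RefSeq span and was overlapped by another strong peak in every library (ranks 7789, 9917, 16196 and 13566).

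The secreted stress hormone genes Fgf21 and Gdf15 were weakly open in every library, as was Shmt2 (ranks 67329 to 173101). Their best gene-end peaks ranked from 85391 to 124230 (Fgf21) and from 54810 to 170182 (Gdf15) over the 4 libraries. For Gdf15 that peak lay at the far end of the gene, and neither of its promoter windows held a peak of any strength in any library, as for Fgf21.

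Among the mitochondrial chaperones and proteases, Hspd1 and Hspe1, which encode the partner chaperones HSP60 and HSP10, are neighbours that start within 1 open region at 55087567-55088595 on chromosome 1. Its folds were 8.02, 10.9, 8.465 and 9.89. The rank moved from 5978 to 1505 and from 5958 to 2378, higher in both disturbed libraries, while control and vehicle lay close together. Scaled, the knockout was at 1.68 times the control and rotenone at 1.39 times the vehicle. The peak was narrower in both, 487 against 1021 bp and 605 against 992 bp, and the part of width was not tested here either. Clpx, which encodes the unfoldase of the matrix protease ClpXP, had a strong gene-end peak in rotenone only (fold 5.03, rank 24669), 1.62 times the vehicle when scaled. Clpp, its protease partner, had best-ranked peaks at its far end, shared with Alkbh7 (ranks 523 to 662), and Lonp1 at its far end, shared with Rpl36. The start of Clpp held a strong peak of its own in every library (ranks 7382, 6280, 7973 and 8414). Over the start of Lonp1 itself the peak was weaker in all 4 libraries, with ranks of 34627 to 51347. Hspa9, the gene of mortalin, had folds of 5.55, 5.18, 6.24 and 4.70.

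Of the 120 strong peaks at the 37 loci in control, 33 lay at an end of a member gene, 32 at an end of another gene, 13 inside a member and 42 elsewhere. Together 65 lay at an end of some protein-coding gene, 54.2% against 24.5% of all strong peaks. Gene-end peaks had the higher median fold in each library, at 7.77, 6.16, 7.99 and 6.53 against 6.58, 5.72, 6.80 and 5.76 for distal ones. They also ranked better, with median ranks of 7917, 8753, 10330 and 11475.5 against 15375, 13172, 16300.5 and 16736. The same order was seen over all strong peaks, where peaks at the end of any protein-coding gene had a median fold of 7.27 in control against 6.65 for the rest. In width the members' gene-end peaks had medians of 487, 433, 445 and 429.5 bp and the distal ones of 458, 347, 394.5 and 325 bp. By mean rank over the 4 libraries, the highest ranked distal peaks that touch no gene end lay 5195 bp from Sesn2 (132515448-132515855 on chromosome 4, rank 2284 in control and 2388 in rotenone), 45010 bp from Eif2ak4 and 25732 bp from Hspa5, and were strong in all 4 libraries.

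Merging the strong peaks of the 4 libraries gave 169 regions at these loci, of 42457 in all. Of these, 93 were strong in all 4 libraries, 55.0% against 46.1% of all regions. By position, 30 of 38 regions at member gene ends were strong in all 4, and 27 of 38 at ends of other genes, 8 of 18 inside members and 28 of 75 elsewhere.

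Gained (or lost) here means strong in 1 library with none of the partner's 60000 best-ranked peaks overlapping it. None of the regions lost in either comparison lay at a member's gene end. The share of all lost peaks that lie at gene ends was not counted, so nothing particular to these genes can be read from that. In the knockout, 7 of 131 strong peaks at the 37 loci were gained (5.34%, 95% Wilson interval 2.61 to 10.6, background 5.33%) and 6 of 120 of the control were lost (5%, 2.31 to 10.5, background 6.76%). In rotenone, 6 of 129 were gained (4.65%, 2.15 to 9.78, background 6.81%) and 15 of 131 of the vehicle were lost (11.5%, 7.06 to 18.03, background 8.04%). Vehicle against control, which differ in neither Sod2 nor rotenone, gave 1 gained of 131 (background 1.03%) and 0 lost of 120 (background 0.847%; a count of 0 allows up to 2.5% by the limit of 3 counts, and 3.10% by the Wilson interval). The backgrounds of all 4 knockout and rotenone shares lie within the members' intervals. Of the 15 rotenone losses, 8 were strong in control as well, and 7 were strong in vehicle and not in control; called against both, the count was 8. The gains in the knockout fell from 7 to 3 when the partner list was lengthened to 70000, since 4 of the control peaks ranked from 62422 to 63239. The other pathway genes gained 12 of 145 and lost 7 of 124 in the knockout, and gained 8 of 144 and lost 5 of 127 in rotenone.

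**Figure D2:**
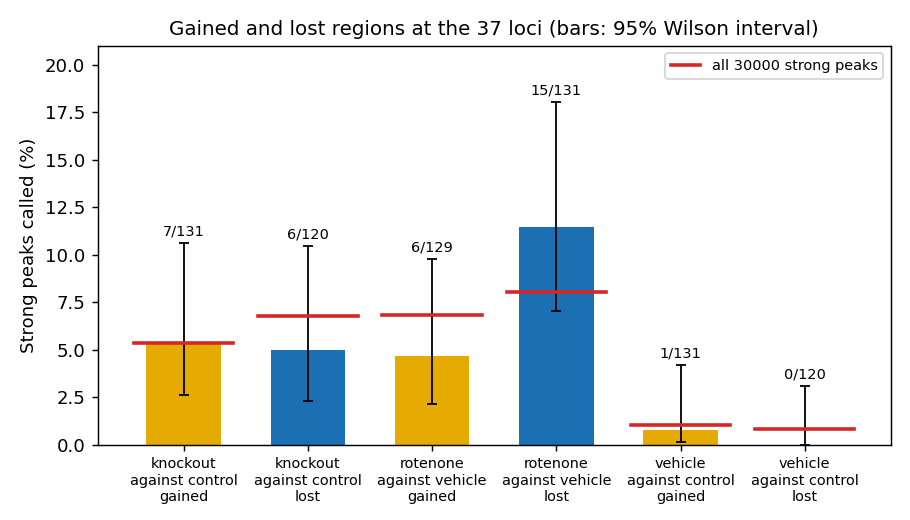
The y axis gives the percent of strong peaks at the 37 loci called gained or lost in each comparison (x axis), with 95% Wilson intervals as error bars and the count over each bar; red lines are the same percent over all 30000 strong peaks. The bar of rotenone losses (15/131) is the tallest, and its interval spans the red line at 8.04%.

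Under the stricter demand that no partner peak of any strength overlaps, 2 knockout gains were left (background 0.243%), the second Ppp1r15a peak and one 5377 bp from Clpp with a fold of only 1.49, and 1 loss (0.343%), near Zfp697 in the Phgdh locus. In rotenone 1 gain was left (0.773%), 30169 bp from Atf5, and 1 loss (0.943%), 14265 bp from Asns; vehicle against control gave 0 and 0 (0.11% and 0.0867%).

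Most knockout losses were rotenone losses too. Of the 6 knockout losses, 5 were also lost in rotenone (83.3% of the 6 and 33.3% of the 15), against 27.4% and 23.0% over all lost regions of the 2 comparisons. They lay at Eif2ak3 (2 regions), Asns, Xbp1 and Cebpg. Of the gains, 0 of 7 and 0 of 6 were shared, against 21.6% and 16.9% over all gained regions. With so few losses and gains, no difference from these shares can be read in either direction. The 2 comparisons use different control libraries.

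At Eif2ak3 the start stood high in every library while several distal regions did not. Inside the gene, at 70881036-70881217, the folds were 5.44, 2.20, 5.56 and 2.85 (ranks 28236, 310956, 29712 and 150000). In a region 38995 bp before the gene, at 70805438-70805540, they were 5.49, 2.27, 5.69 and 2.45 (ranks 29209, 266580, 28472 and 300876). Both regions were high in control and vehicle and low in the other pair. Rotenone lost 2 more: another region inside the gene, at 70872173-70872585 (fold 6.85 in vehicle, 3.41 in rotenone), and one 39733 bp away that was strong in vehicle alone. The first of these was still strong in the knockout (rank 29668 against 25680 in control). A further distal region at 70812431-70812952 stayed strong in all 4, with folds of 7.99, 7.98, 8.25 and 6.19. In control the 2 regions lost in both comparisons ranked between 28236 and 29209, close to the end of the strong list.

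At Asns (chromosome 6, 7675165-7693209), the region at 7676312-7676491, toward the far end of the gene, had folds of 6.21, 2.87, 6.27 and 3.51, with ranks of 20612, 83430, 23622 and 63296. A second region, 14265 bp past the gene at 7660847-7660954, had folds of 5.20 for control, 2.21 for the knockout and 6.00 for vehicle, and no rotenone peak; in control it ranked 31631, just outside the strong list. Between them, at 7672847-7673246, the folds were 7.05, 7.04, 6.75 and 6.88, with no such gap between the libraries.

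**Figure D3:**
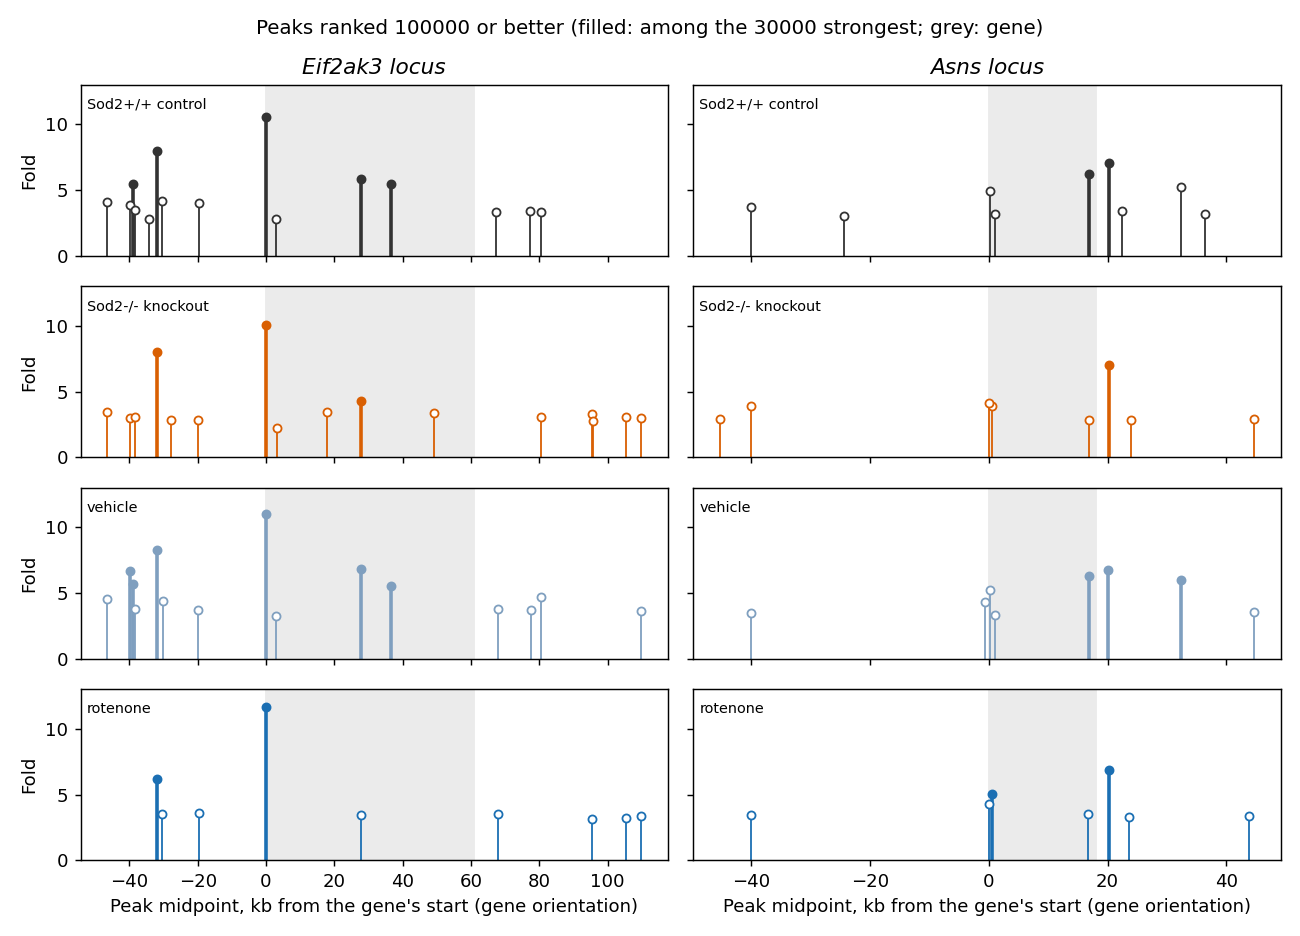
Each panel plots the fold (y axis) of peaks ranked 100000 or better against the distance of their midpoint from the start of Eif2ak3 (left) or Asns (right) in kb, read along the gene, with 1 row per library; filled points are among the 30000 strongest, and the gene is shaded. The tall Eif2ak3 start peak (fold 10.6, 10.0, 11.04 and 11.7 from control to rotenone) stands in every row, while filled points at the regions lost in both comparisons stand in the control and vehicle rows alone.

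The region lost upstream of Xbp1, at 5509849-5510122 on chromosome 11, had folds of 5.74, 2.98, 5.64 and 3.56. Its rotenone peak ranked 60249, so it only just met the rule. The region near Cebpg, at 35036210-35036816 on chromosome 7 inside Pepd, had folds of 5.78, 3.06, 5.29 and 3.28. By the rule, rotenone alone lost 2 regions inside Cep78 in the Psat1 locus. That at 15962418-15962628 had folds of 5.20, 2.64, 5.56 and 3.03, low in the knockout too. In control it ranked 30739, just outside the strong list, so no knockout loss could be called there. The one at 15963392-15963662 on chromosome 19 had folds of 6.54, 3.31, 6.55 and 3.06, low in the knockout as well although it stayed within its 60000 strongest (rank 53158). A region 41624 bp from Atf3, a stress-induced repressor, showed the same order, with folds of 8.21, 3.41, 7.02 and 3.30 and a knockout rank of 50267. The other losses of rotenone, near Cebpb, Ddit3, Gdf15 and Slc7a5, were of regions that were strong in vehicle and not in control. The Ddit3 region was also the 1 gain of vehicle over control.

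Regions gained in rotenone lay near Phgdh, Eif2ak4, Atf5 and Ppp1r15b, at the start of Clpx and inside Atf6. The Atf6 region, at 170853688-170853983, had folds of 3.61, 4.08, 2.90 and 4.75. The Eif2ak4 region, at 118487979-118488030 on chromosome 2, had folds of 2.62, 3.10, 3.01 and 5.46, the last over a width of 52 bp. In the knockout the gains were at Slc7a5 (2), Ppp1r15a, Clpp, Eif2ak4, Psat1 and Ddit4.

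As a second measure, the fold of the best overlapping peak was divided by the library's median of strong peaks and called when it differed by at least 1.5 times, or when 1 of the pair had no peak there. In the knockout 14 of 169 regions were higher (8.28%, background 9.04%) and 18 lower (10.7%, background 8.36%). In rotenone 13 were higher and 13 lower (7.69% each, background 9.28% and 8.47%), and in vehicle against control 4 were higher and 1 lower (background 2.18% and 1.73%). Without the division the median log2 ratio over all regions was -0.27 for the knockout and -0.22 for rotenone, and the split became 4 higher and 28 lower in the knockout and 6 and 30 in rotenone. Of the regions that touch no gene end, 15 of 93 were lower in the knockout (16.1%, against 9.56% of all distal regions) and 12 in rotenone (12.9%, against 9.71%). Of the same regions, 8 were higher in the knockout (8.60%, against 9.66%) and 9 in rotenone (9.68%, against 10.1%), near the background. No interval was computed for these shares, and their difference from the background was not tested. Of the 38 member gene-end regions, 1 was lower in each comparison, that of Atf6, and 3 were higher in each (2.63% and 7.89%). Over all gene-end regions 3.87% were lower and 6.69% higher in the knockout, and 3.83% and 6.09% in rotenone, so the members' counts were near the background. The higher ones were Hspd1, Slc7a5 and Ppp1r15a in the knockout, and Eif2ak1, Clpx and Ppp1r15a in rotenone. The Ppp1r15a calls rest on the second peak, which has no partner peak in control or vehicle and in rotenone is itself weak, at fold 2.76. Without the division Hspd1 was at 10.9 against 8.02 and Eif2ak1 at 15.0 against 11.1, both short of 1.5 times, so these calls were lost, as were those of Slc7a5 and Clpx. Atf6 was past 1.5 times lower in both comparisons without the division too.

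In both comparisons 9 regions were lower (5.33%, against 3.56% of all regions), at Asns, Atf3, Atf6, Cebpb, Eif2ak3 and Psat1, and 4 were higher (2.37%, against 3.76%), at Atf5, Ddit4, Eif2ak4 and Ppp1r15a; those of Atf5 and Ppp1r15a had no peak in control or vehicle. The higher region of Ddit4 lay at the end of its neighbour Dnajb12, with folds of 7.30, 10.0, 7.59 and 9.75. Another 2 regions went opposite ways, near Ppp1r15b and Ddit4. The one near Ppp1r15b, at 133181101-133181202 on chromosome 1, also differed between control and vehicle, with folds of 5.16 and 3.14.

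**Figure D4:**
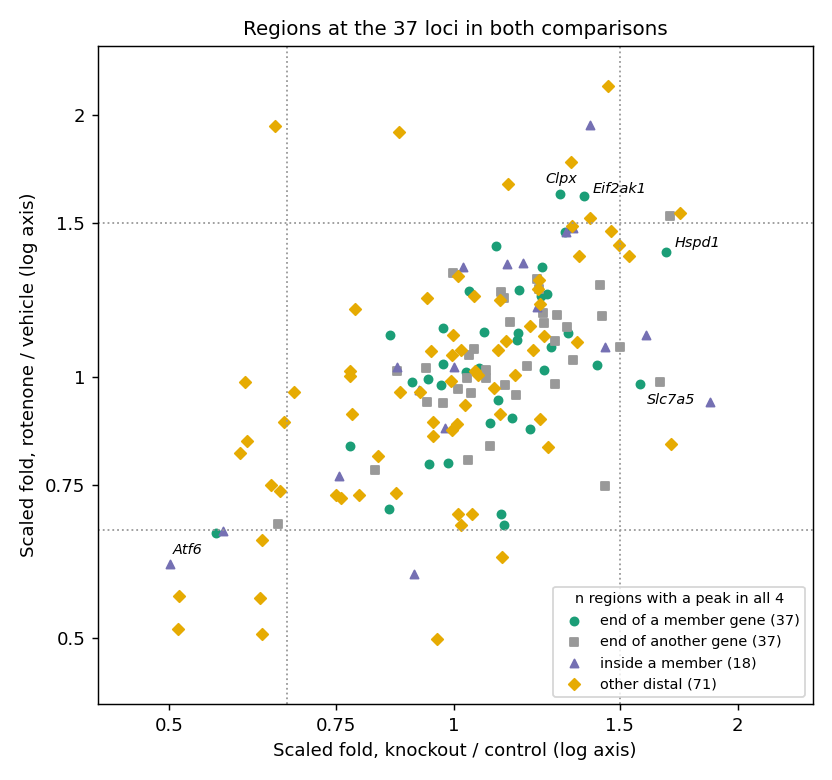
Points are the 163 of 169 regions with a peak in all 4 libraries, by their scaled fold in the knockout over control (x axis) and in rotenone over vehicle (y axis), both on log axes, with colour and shape for position; dotted lines mark 1.5 times in either direction. Most regions lie inside the lines, the lower left corner holds distal regions and the gene end of Atf6, and the gene end of Hspd1 lies past the line on the x axis only.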

How the data were processed

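ATAC-seq was measured in 4 libraries, 1 per group. Bowtie2, bedtools, MACS2, HOMER and the build mm10 are named per the submitters' processing notes; their versions and settings, and whether reads were shifted for Tn5, were not given in the sources used here. For each library the authors deposited its own peak list, without a header. Its fold enrichment is a ratio over local background, taken from the column where MACS2 writes it, and its −log10 p and −log10 q are the authors' own values. The deposited score was not used. Read depth is unknown.

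Peaks were converted to 1-based positions, ranked by −log10 p (ties by fold) and assigned to the nearest of 37 genes by midpoint, with RefSeq gene spans of GRCm38.p6. One of the 35 other pathway genes, Ero1l, was matched through its synonym. Overlap means at least 1 bp. Folds of different lists are set side by side as a description, raw and divided by each library's median. The members, lists and rules were chosen with earlier results of these data known. All members may be named; those described most fully have a called region or a best-ranked peak. To check the overlap code alone, all partner peaks overlapping 200 strong peaks were removed, and 200 of 200 were then called lost in each comparison. That outcome was fixed by the removal, so it does not measure how well weakened peaks are found. Alternatives changed list length, ranking, overlap, windows, call size and scaling. Analyses used Python 3.11.15, numpy 2.4.6, pandas 2.3.3 and matplotlib 3.10.9.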

Additional observations from a re-analysis of the deposited data

How the results depend on the processing

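No paired analysis was possible because each group has 1 library. The number of members with a strong gene-end peak stayed within 1.5 times under every list length, ranking and window tried. The counts of changed regions moved with the settings, and the cause was not tested. With strong lists of 15000 and partner lists of 30000, changed together, gains were 2 in the knockout, 0 in rotenone and 0 in vehicle against control, and rotenone losses 2. With strong lists of 60000 and partner lists of 120000, gains were 13, 28 and 6 and losses 25, 36 and 7 in the same order of comparisons. With no partner peak of any strength, gains were 2, 1 and 0, and losses 1 in the knockout and 1 in rotenone. Ranking by fold gave 11 knockout losses and 2 in vehicle against control, and 50% coverage gave 11 and 1. Within 20000 bp rotenone gains were 3; within 100000 bp they were 13, and knockout losses 13. Chosen after seeing the data, a partner list of 70000 gave 3 knockout gains, and calls against both control and vehicle gave 3 knockout gains and 8 rotenone losses. By scaled fold, a call at 2 times gave 3 higher and 1 lower in the knockout, 3 and 3 in rotenone, and 0 and 0 in vehicle against control. Without scaling there were 4 and 28 in the knockout and 6 and 30 in rotenone. Regions from lists of 15000 gave 7 and 5, 2 and 3, and 1 and 0, and from lists of 60000 gave 37 and 31, 41 and 40, and 15 and 15. Within 20000 bp they were 9 and 8 in the knockout, 7 and 6 in rotenone, and 0 lower in vehicle against control. Rotenone losses outnumbered gains at each of the list lengths, rankings and windows named above. The same order held over all strong peaks (8.04% lost and 6.81% gained). It was not seen with no partner peak of any strength (1 and 1) or by scaled fold (13 lower and 13 higher). In the knockout the order of gains and losses depended on the settings.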
